A study of Homo sapiens with 4 samples.

Results

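The AP-1 family transcription factors were examined here as 10 genes, listed by symbol and found in the deposited gene tables by their NCBI Gene numbers: JUN, JUNB and JUND among the JUN genes, FOS, FOSB, FOSL1 and FOSL2 among the FOS genes, and ATF2, ATF3 and BATF3 among the ATF and BATF genes. All 10 were among the 46427 gene numbers of the tables. RNA came from Huh7 and HepG2, which the study describes as human hepatocellular carcinoma lines and grew in the same medium. The cells received 20 nM siRNA in a transfection of 5 h and were harvested 48 h later. The siRNA was either a negative control (NC-siRNA, genotype labelled WT) or directed at COP1 (COP1-siRNA, genotype labelled COP1 Knockdown). Each line and siRNA had 1 library, 4 in all, which share a batch label and carry no replicate number. The study asked which transcripts change when COP1 is depleted in liver cancer cells.

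AP-1 is a pair of basic leucine zipper (bZIP) proteins that binds short DNA elements and turns on genes of growth, stress response and tissue remodelling. JUN proteins can pair with each other, whereas FOS proteins need a JUN partner, and ATF proteins shift the pair towards cyclic AMP response elements. COP1 is a substrate receptor of a DET1, DDB1 and CUL4A ubiquitin ligase that marks JUN protein for degradation. The libraries measure mRNA only, so the amount of JUN protein was not measured in these files.

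The promoter windows of the members were searched on both strands for the letters that AP-1 and its ATF pairs bind. RefSeq on GRCh38.p14 gave windows, from 250 bases before to 50 bases after a transcript start, for 7 of the 10 members, 8 windows in all since ATF3 had 2. FOSL1, ATF2 and BATF3 had no entry. The AP-1 element TGANTCA was present in 1 of the 8 windows and in 7.71% of all 35116 windows, and the longer element TGACNTCA in 3 of the 8 and in 7.72% of all. The cyclic AMP response element TGACGTCA, a case of the longer element, was in 1 of the 8 and in 1.85% of all. The 4 matches are shown because these are letters that the family's own proteins are known to bind. Capitals mark the match, bases are counted from the transcript start, and each line runs 5′ to 3′ on the strand of the gene.
JUN, match at base −67, chr1:58784096-58784125, minus strand: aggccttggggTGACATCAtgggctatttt
JUND, match at base −200, chr19:18281804-18281833, minus strand: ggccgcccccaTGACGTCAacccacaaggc
ATF3, match at base −123, chr1:212565273-212565302, plus strand: cacctatgataTGACATCAtatggccactc
FOSL2, match at base 4, chr2:28392851-28392879, plus strand: tgccattgtagTGACTCAtctcgggcaga
JUN and ATF3 carried the same 8 letters, TGACATCA. JUNB, FOS and FOSB had no match to these letters in their windows. The matches describe the sequence and were not tested for binding.

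The values below are in TPM, a share of each library's transcripts that is scaled for gene length. Levels are set against each other between genes on this scale, and coverage ordered some members otherwise, as given below. The targeted gene checked the labels: with NC-siRNA, COP1 stood at 19.7 TPM in Huh7 and 26.9 TPM in HepG2, and with COP1-siRNA at 6.18 and 16.1 TPM. COP1 was therefore lower in both libraries labelled as knockdown, with 31.4% and 59.9% of its control level left. The tables hold no read counts. From the ratio of coverage to FPKM, the COP1-siRNA library held more sequence than the NC-siRNA library of its line, by a factor of 1.13 in Huh7 and of 1.27 in HepG2. All 9 hepatocyte markers were at 1 TPM or more in every library, with summed levels of 20309 and 18181 TPM in Huh7 and 2672 and 3083 TPM in HepG2. Of 8 markers of leukocytes, macrophages, endothelium, fibroblasts and squamous cells, 4 were at 0 in each library and the list summed to between 18.0 and 64.2 TPM, most of it CD68. In bulk RNA, fewer cells that make a transcript and less of it per cell cannot be told apart.

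The JUN genes, which encode the partners common to most AP-1 pairs, held most of the family's mRNA. The 10 genes summed to 276 and 256 TPM in Huh7 with NC-siRNA and COP1-siRNA, and to 281 and 240 TPM in HepG2. JUN, JUNB and JUND made up 67.4%, 62.3%, 72.7% and 68.0% of these sums, in the same order of libraries. The FOS genes made up 4.39% and 8.64% in Huh7 and 4.94% and 6.91% in HepG2, and the share was thus higher with COP1-siRNA in each line. The ATF and BATF genes accounted for 28.2%, 29.1%, 22.4% and 25.0%. These shares rest on TPM, and the ATF and BATF genes and FOSL2 had low coverage for their FPKM, as given below. The summed level of the JUN genes was 15.4 times that of the FOS genes in Huh7 with NC-siRNA and 7.21 times with COP1-siRNA, and 14.7 and 9.85 times in HepG2.

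**Figure D1:**
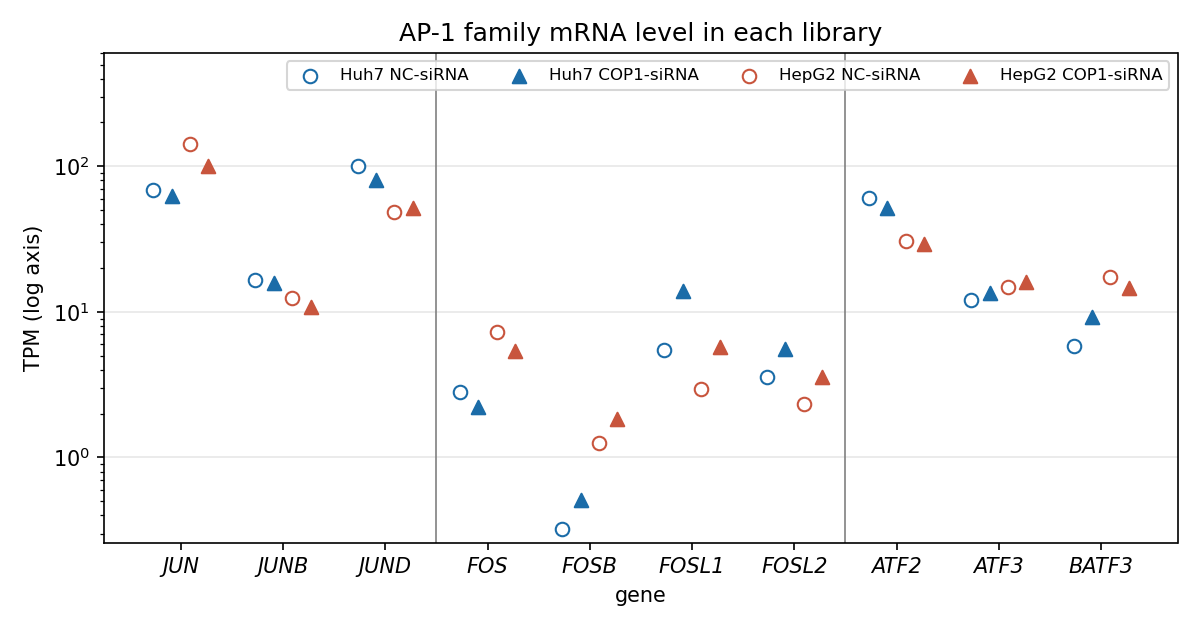
Level of each AP-1 gene in TPM (log axis) in each of the 4 libraries. Open circles are NC-siRNA and filled triangles COP1-siRNA, Huh7 in blue and HepG2 in red, with vertical lines between the JUN, FOS and ATF or BATF genes. JUN, JUND and ATF2 were at 29.4 TPM or more in every library, and FOSB was the lowest gene in every library.

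JUN, the founding member and the substrate of COP1, is a gene without introns at chr1:58780791-58784047 on the minus strand (gene 3725). It was at 69.0 TPM in Huh7 with NC-siRNA, 62.8 TPM in Huh7 with COP1-siRNA, 143 TPM in HepG2 with NC-siRNA and 100.2 TPM in HepG2 with COP1-siRNA. Both HepG2 libraries were above both Huh7 libraries, and in each line the COP1-siRNA library was the lower one. The log2 fold change of COP1-siRNA over NC-siRNA, computed on TPM + 1, was −0.13 in Huh7 and −0.51 in HepG2. In HepG2 JUN was among the lower tail of genes, since 401 of the 14456 tested genes, or 2.77%, had a change at least as low.

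JUND, the JUN gene that resting cells hold at a steady level, lies at chr19:18279694-18281622 on the minus strand (gene 3727), also without introns. Its levels were 101 and 80.7 TPM in Huh7 with NC-siRNA and COP1-siRNA, and 48.6 and 52.0 TPM in HepG2. JUND was the most abundant member in both Huh7 libraries, whereas JUN was in both HepG2 libraries. The log2 fold changes of JUND were −0.32 in Huh7 and 0.09 in HepG2. JUNB, a JUN protein with weaker activation of many JUN targets, lies at chr19:12791486-12793315 on the plus strand (gene 3726) and is intronless as well. JUNB was at 16.5 and 15.8 TPM in Huh7 and at 12.5 and 10.8 TPM in HepG2, and the log2 fold changes were −0.05 and −0.18. The lines thus differed in which JUN gene led: JUN held 37.0% and 39.4% of the JUN gene TPM in Huh7 and 70.1% and 61.5% in HepG2, and JUND held 54.2% and 50.7% in Huh7 and 23.8% and 31.9% in HepG2.

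FOSL1, which encodes FRA1, a FOS protein found in many invasive tumours, was the member with the largest difference between siRNAs in both lines. It lies at chr11:65892049-65900526 on the minus strand (gene 8061), and its longest transcript in GENCODE 29 has 4 exons. In Huh7 the level of FOSL1 was 5.45 TPM with NC-siRNA against 13.8 TPM with COP1-siRNA, and in HepG2 2.95 against 5.76 TPM. Both COP1-siRNA libraries were above both NC-siRNA libraries. The mean coverage, the number of reads over each base before scaling for depth, was 13.0 and 40.1 in the Huh7 libraries, and 6.75 and 16.5 in those of HepG2. The log2 fold change was 1.20 in Huh7 and 0.78 in HepG2, or 2.54-fold and 1.95-fold as a plain ratio of TPM. A change at least as high was found for 48 of 13000 tested genes in Huh7, or 0.369%, and for 176 of 14456 in HepG2, or 1.22%. FOSL1 is among the genes that the study selected for their change in these same libraries, so its direction here is not independent evidence. The study set a threshold of 2-fold in each line. On the values used here, neither FOSL1 nor COP1 (log2 fold change −0.71) reached it in HepG2.

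FOSL2, which encodes FRA2, the nearest relative of FRA1, lies at chr2:28392855-28417317 on the plus strand (gene 2355). It was at 3.55 and 5.52 TPM in Huh7 with NC-siRNA and COP1-siRNA and at 2.33 and 3.57 TPM in HepG2. The log2 fold change of FOSL2 was 0.52 in Huh7 and 0.46 in HepG2, with the COP1-siRNA library the higher one in each line. The lower COP1-siRNA value, 3.57 TPM in HepG2, was barely above the higher NC-siRNA value, 3.55 TPM in Huh7. The antisense gene FOSL2-AS1 overlaps it and was listed at 0 in all 4 libraries.

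FOS, the classical immediate-early member, lies at chr14:75278828-75282230 on the plus strand (gene 2353). It was at 2.80 and 2.23 TPM in Huh7 and at 7.31 and 5.38 TPM in HepG2, lower with COP1-siRNA in each line, with log2 fold changes of −0.23 and −0.38. FOSB, a FOS gene known for its stable splice form in neurons, lies at chr19:45467996-45475179 on the plus strand (gene 2354). FOSB was at 0.323 and 0.514 TPM in Huh7, under the minimum of 1 TPM that was set for testing, and at 1.26 and 1.85 TPM in HepG2, where the log2 fold change was 0.34.

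The makeup of the FOS gene mRNA therefore differed between siRNAs in both lines. FOSL1 made up 44.9% of the FOS gene TPM in Huh7 with NC-siRNA and 62.6% with COP1-siRNA, and 21.3% and 34.8% in HepG2. FOS itself made up 23.1% and 10.1% in Huh7 and 52.8% and 32.5% in HepG2. The ratio of FOSL1 to FOS was 1.95 and 6.20 in Huh7 and 0.403 and 1.07 in HepG2. By TPM, FOSL1 thus stood slightly above FOS in HepG2 with COP1-siRNA but not with NC-siRNA. By coverage it did not in that COP1-siRNA library, with 16.5 for FOSL1 and 16.8 for FOS. With 1 library per line and siRNA these shares have no replicate check.

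**Figure D2:**
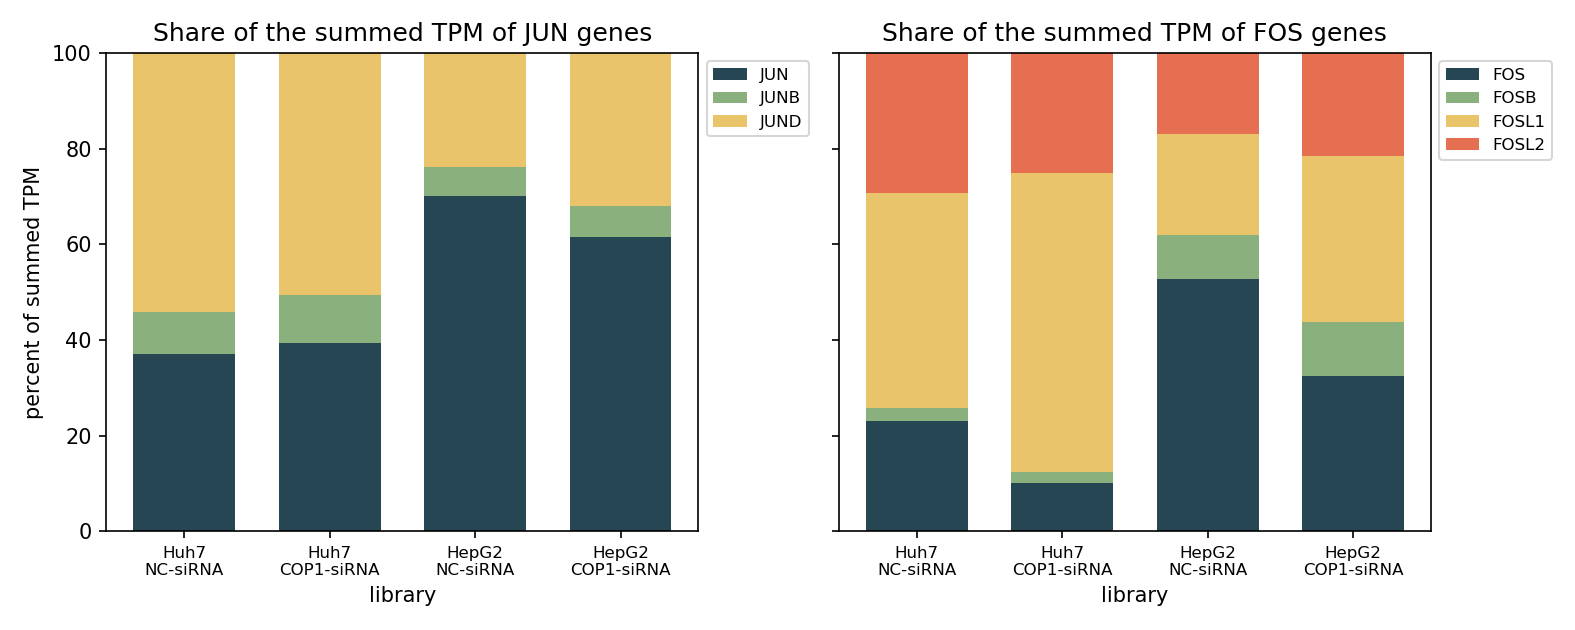
Share of the summed TPM of the JUN genes (left) and of the FOS genes (right) held by each gene, in percent, for each of the 4 libraries. JUN held 70.1% and 61.5% of the JUN gene TPM in HepG2 and less than JUND in Huh7, and the FOSL1 share was higher with COP1-siRNA in each line.

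Among the ATF and BATF genes listed as members, ATF2, a stress kinase substrate that pairs with JUN, was the most abundant. It lies at chr2:175072250-175168206 on the minus strand (gene 1386). ATF2 was at 60.1 and 51.6 TPM in Huh7 and at 30.5 and 29.4 TPM in HepG2, and the log2 fold changes were −0.22 and −0.05. ATF4 and ATF5, which are not listed as members, were above ATF2 in every library. ATF4 was at 296 and 293 TPM in Huh7 and at 865 and 872 TPM in HepG2. ATF5 was at 80.5 and 84.6 TPM in Huh7 and at 31.0 and 36.5 TPM in HepG2. The microRNA gene MIR933 lies inside ATF2 on the same strand and was at 0.339 TPM in Huh7 with COP1-siRNA and listed at 0 in the other libraries.

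ATF3, a stress-induced member, lies at chr1:212565334-212620777 on the plus strand (gene 467). It was at 12.0 and 13.6 TPM in Huh7 and at 14.9 and 16.0 TPM in HepG2, and the log2 fold changes were 0.17 and 0.10. BATF3, a small AP-1 protein that lacks an activation domain and is known from dendritic cells, lies on the opposite strand 65640 bases further along, at chr1:212686417-212699943 (gene 55509). BATF3 was at 5.80 and 9.21 TPM in Huh7 and at 17.3 and 14.6 TPM in HepG2. Its log2 fold change was 0.59 in Huh7 and −0.23 in HepG2, so the neighbouring genes did not move alike in both lines.

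Set in order by TPM, the levels in Huh7 ran JUND, JUN, ATF2, JUNB, ATF3, FOSL1, BATF3, FOSL2, FOS and FOSB. Over the 2 Huh7 libraries the range of FOSL1 overlapped with that of ATF3 and with that of BATF3, and the other neighbours in this order were separate. In HepG2 the order was JUN, JUND, ATF2, BATF3, ATF3, JUNB, FOS, FOSL1, FOSL2 and FOSB, and the ranges overlapped between BATF3 and ATF3, between FOS and FOSL1 and between FOSL1 and FOSL2. FOSL1 was the 7th member by TPM in Huh7 with NC-siRNA and the 5th with COP1-siRNA. By coverage the order differed, since in Huh7 with NC-siRNA FOSL1 (13.0) and FOS (7.50) were above ATF3 (5.75) and BATF3 (4.91). In HepG2 with NC-siRNA, the coverage of JUNB (31.0) and FOS (18.2) was above that of BATF3 (13.1) and ATF3 (7.37).

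Within a line, 9 of the 10 members reached the minimum of 1 TPM in Huh7 and all 10 did in HepG2. At least 2-fold higher with COP1-siRNA was 1 of the 9 in Huh7, FOSL1, against 0.638% of all tested genes, and none was at least 2-fold lower, against 0.446%. In HepG2 0 of 10 members passed 2-fold upwards, against 0.54% of all tested genes, and 0 downwards, against 0.394%, which is 0.934% in either direction. At 1.5-fold, FOSL1 and BATF3 were higher in Huh7, 2 of 9 against 2.8% of all, and FOSL1 was higher in HepG2, 1 of 10 against 2.56%. At least 1.5-fold higher in both lines was 1 member, FOSL1, against 0.351% of genes tested in both, and 0 were at least 1.5-fold lower in both, against 0.493%. The median log2 fold change of the tested members was −0.05 in Huh7 and 0.02 in HepG2, beside −0.001 and −0.008 for all tested genes. The standard deviation across genes was 0.51 for the members and 0.30 for all tested genes in Huh7, and 0.40 and 0.28 in HepG2. The members' values include FOSL1, the largest change in each line, and the spread without FOSL1 was not computed.

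Counting any size, 8 of the 10 members differed in the same direction in both lines, against 60.2% of the 11970 genes tested in both. FOSB, FOSL1, FOSL2 and ATF3 were higher with COP1-siRNA in both, and JUN, JUNB, FOS and ATF2 were lower in both. JUND and BATF3 went in opposite directions. These counts include FOSB, which was not tested in Huh7. Small differences depended on the scaling: with upper-quartile scaling, which moved the median of all genes to 0.12 in Huh7, JUN and JUNB turned to 0.001 and 0.07 in that line, and ATF2 turned to 0.03 in HepG2.

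**Figure D3:**
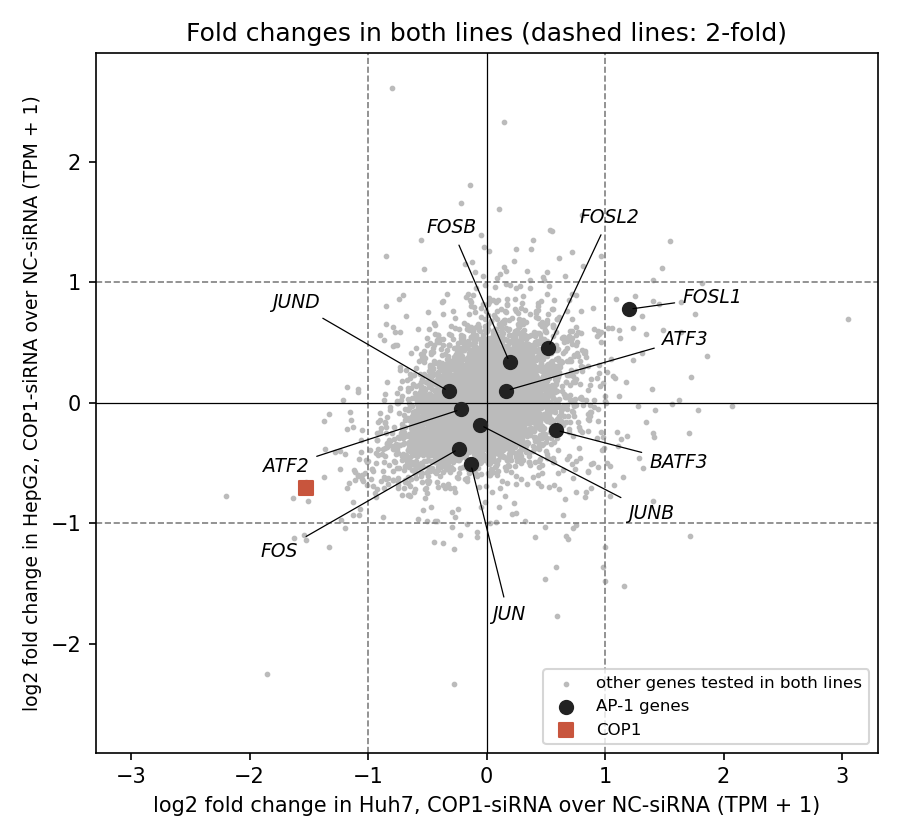
Log2 fold change of COP1-siRNA over NC-siRNA on TPM + 1 in Huh7 (horizontal) and HepG2 (vertical) for the AP-1 genes (black), COP1 (red square) and the other genes tested in both lines (grey), with dashed lines at 2-fold. FOSL1, at 1.20 and 0.78, lay apart from the other members, and FOSB is drawn although it was not tested in Huh7.

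The siRNA effect was also tested across the lines, with the cell line as a block and the 4 libraries in 1 limma fit over 15486 genes. No member was called at a Benjamini-Hochberg adjusted p of at most 0.05, and neither was any other gene (0% of all), the lowest adjusted p of any gene being 0.0775. At an unadjusted p of at most 0.05 there were 3 members, FOSL1, FOSL2 and JUN, against 10.8% of all genes. FOSL1 had a log2 effect of 0.99 (95% confidence interval 0.62 to 1.35) and an adjusted limma p of 0.168. FOSL2 had an effect of 0.49 (0.16 to 0.81) with an adjusted limma p of 0.281. JUN had an effect of −0.32 (−0.59 to −0.05) with an adjusted limma p of 0.387. The intervals of the other 7 members included 0, with adjusted limma p-values from 0.481 to 0.790. The call of FOSL1 depended on the values used, since its adjusted limma p was 0.0228 with FPKM in place of TPM, an effect of 0.85, and 0.0398 with upper-quartile scaling, an effect of 1.08. This test rests on 2 lines, and 1 residual degree of freedom per gene was strengthened by a prior worth 4.84.

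Between the lines, 9 of the 10 members differed at an adjusted limma p of at most 0.05, which is to be read against 78.5% of all genes. The siRNA was the block of this fit, and its p-values measure only the spread between these 4 libraries, which no label ties to separate cultures. JUN (0.85 log2 units, standard error 0.11, adjusted p 0.000649), FOS (1.06), FOSB (0.84) and BATF3 (1.02) were higher in HepG2. JUNB (−0.44), JUND (−0.83), FOSL1 (−0.92), FOSL2 (−0.48) and ATF2 (−0.87, standard error 0.09, adjusted p 0.000276) were higher in Huh7. ATF3 differed by 0.26, with an adjusted limma p of 0.0595, and by 0.02 under median-of-ratios scaling. The members higher in HepG2 were 4 of 10 against 51.2% of all genes, and those higher in Huh7 were 5 of 10 against 27.3%.

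As plain ratios of the NC-siRNA libraries, JUN was 2.07-fold, FOS 2.61-fold, FOSB 3.90-fold and BATF3 2.98-fold higher in HepG2. JUND was 2.08-fold, ATF2 1.97-fold, FOSL1 1.85-fold, FOSL2 1.52-fold and JUNB 1.32-fold higher in Huh7. The median difference of all genes was 0.36 towards HepG2 and became 0.13 under median-of-ratios scaling. The summed hepatocyte markers were higher in both Huh7 libraries than in both HepG2 libraries, as given above, and their part in the AP-1 differences was not tested.

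**Figure D4:**
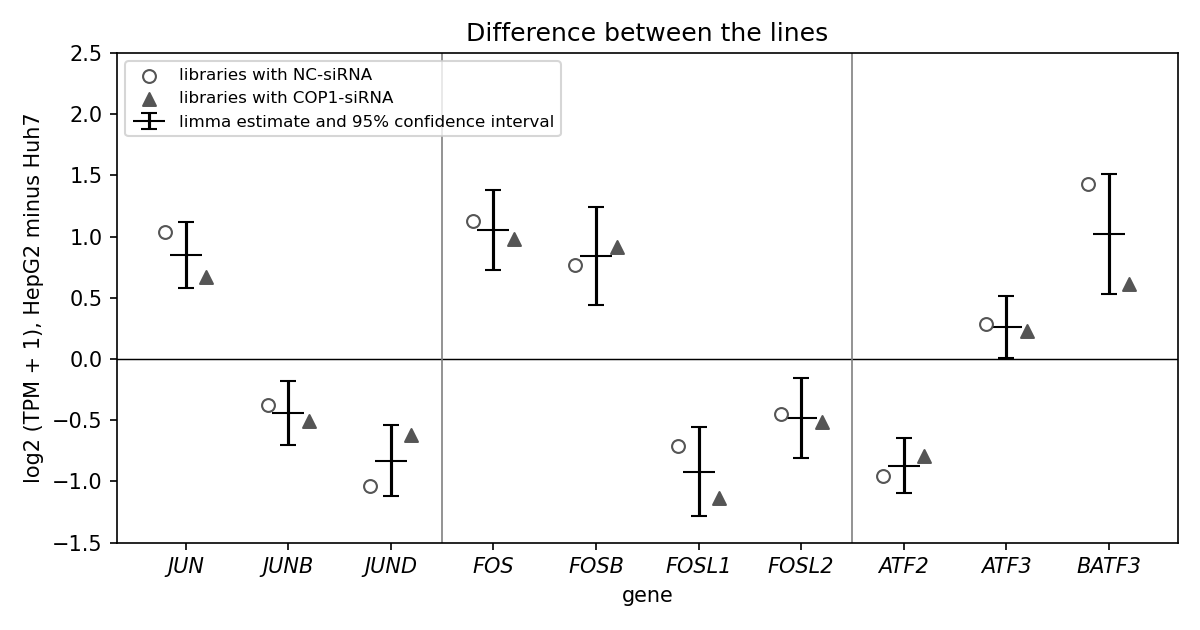
Difference between HepG2 and Huh7 in log2(TPM + 1) for each AP-1 gene. Circles are the NC-siRNA libraries, triangles the COP1-siRNA libraries, and bars the limma estimate with its 95% confidence interval. JUN, FOS, FOSB and BATF3 were above 0, and JUNB, JUND, FOSL1, FOSL2 and ATF2 below it.

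Other genes of the pathway were described from lists, by counts and medians and without a test, and the genes named in the following 4 paragraphs, COP1 and FGB apart, were chosen after their values were seen. Of 18 other bZIP relatives, 17 were tested in Huh7 and 18 in HepG2, none passed 2-fold, and the medians of the log2 fold change were −0.05 and 0.05. JDP2, a repressor that pairs with JUN, was at 4.83 and 7.41 TPM in Huh7 and at 1.64 and 4.15 TPM in HepG2, and the log2 fold changes were 0.53 and 0.96. On coverage scaled for depth, to which 1 was also added, JDP2 gave 0.33 and only 0.08. Its coverage before scaling was low for its TPM, at 2.64 and 4.57 in Huh7 and 1.06 and 1.56 in HepG2. The added 1 shrinks changes more at such low values, so these changes are not directly comparable with those on TPM. MAF, a large bZIP protein with its own DNA element, was lower with COP1-siRNA in each line, with 6.51 and 4.25 TPM in Huh7 and 12.5 and 7.25 TPM in HepG2. ATF1, a relative of CREB1, was likewise lower, with log2 fold changes of −0.37 and −0.50. BATF, the relative of BATF3, was at 3.63 and 5.96 TPM in Huh7 and at 0.802 and 1.01 TPM in HepG2.

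Of 19 genes of the MAP kinase pathway to AP-1, 16 were tested in Huh7 and 18 in HepG2. None passed 2-fold, with medians of −0.13 and −0.01, and 11 of 16 and 10 of 18 were lower. MAPK9, which encodes the JUN kinase JNK2, was at 36.3 and 23.6 TPM in Huh7 and at 37.1 and 26.2 TPM in HepG2, that is log2 fold changes of −0.60 and −0.49. MAPK8, which encodes JNK1, was at 9.21 and 9.40 TPM in Huh7 and at 12.7 and 13.7 TPM in HepG2. The list of ubiquitin ligase genes that act on JUN had 7 of 8 members tested in Huh7 and 8 in HepG2, and COP1 in Huh7 was the only gene past 2-fold, with medians of 0.05 and 0.04. The gene not tested in Huh7 was DET1, at 0.156 and 0.037 TPM in Huh7 and at 7.98 and 8.63 TPM in HepG2. CUL4B, a cullin scaffold, had log2 fold changes of −0.66 and −0.37, whereas CUL4A had 0.23 and 0.23 and FBXW7, a ligase for phosphorylated JUN, had 0.11 and 0.02.

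Of 27 genes known as AP-1 targets, 20 were tested in Huh7 and 19 in HepG2, and 0 passed 2-fold in either line, against 1.08% and 0.934% of all tested genes. Higher with COP1-siRNA were 14 of 20 (70.0%) in Huh7 and 15 of 19 (78.9%) in HepG2, against 49.9% and 48.3% of all tested genes, with medians of 0.09 and 0.17. VIM, a mesenchymal intermediate filament, was at 496 and 677 TPM in Huh7 and at 645 and 878 TPM in HepG2. PLAUR, the urokinase receptor, was at 1.67 and 3.54 TPM in Huh7 and at 6.47 and 8.97 TPM in HepG2. With 1 added, its log2 fold changes were 0.77 and 0.42 on TPM and 0.40 and 0.28 on scaled coverage. The coverage of PLAUR before scaling was low for its TPM, at 1.11 and 2.57 in Huh7 and 3.92 and 6.49 in HepG2. The added 1 therefore shrinks the changes on coverage more than those on TPM. CXCL8, a neutrophil chemokine, was at 195 and 237 TPM in Huh7 and at 3.78 and 8.33 TPM in HepG2. CCND1, a G1 cyclin, went opposite ways, with −0.22 in Huh7 and 0.46 in HepG2. The stromelysin MMP3, a classical AP-1 target, was listed at 0 in both Huh7 libraries and was at 0.158 and 1.11 TPM in HepG2. Its log2 fold change there was 0.86, at levels near the minimum TPM. As plain ratios of TPM, PLAUR in Huh7 (2.12) and CXCL8 (2.21) and MMP3 (7.02) in HepG2 were above 2-fold among the tested targets. The proteases MMP1, MMP9, MMP10 and MMP13 were under the minimum TPM in all 4 libraries.

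Of 15 other immediate-early genes, 13 were tested in each line and none passed 2-fold, with medians of 0.18 and 0.03. BTG2, an antiproliferative gene, was at 10.6 and 16.2 TPM in Huh7 and at 10.8 and 17.4 TPM in HepG2. EGR1, a zinc finger factor induced together with FOS, was lower with COP1-siRNA in each line, with log2 fold changes of −0.34 and −0.55, as FOS was. Of the 9 hepatocyte markers, 1 was higher with COP1-siRNA in Huh7 and 9 in HepG2, with medians of −0.11 and 0.40. FGB, the fibrinogen beta chain, was the only marker past 2-fold, at 6.97 and 15.5 TPM in HepG2. The higher FOSL1 level with COP1-siRNA thus stood beside higher levels of all 9 hepatocyte markers in HepG2 and of 1 of 9 in Huh7, and their part in it was not tested.

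**Figure D5:**
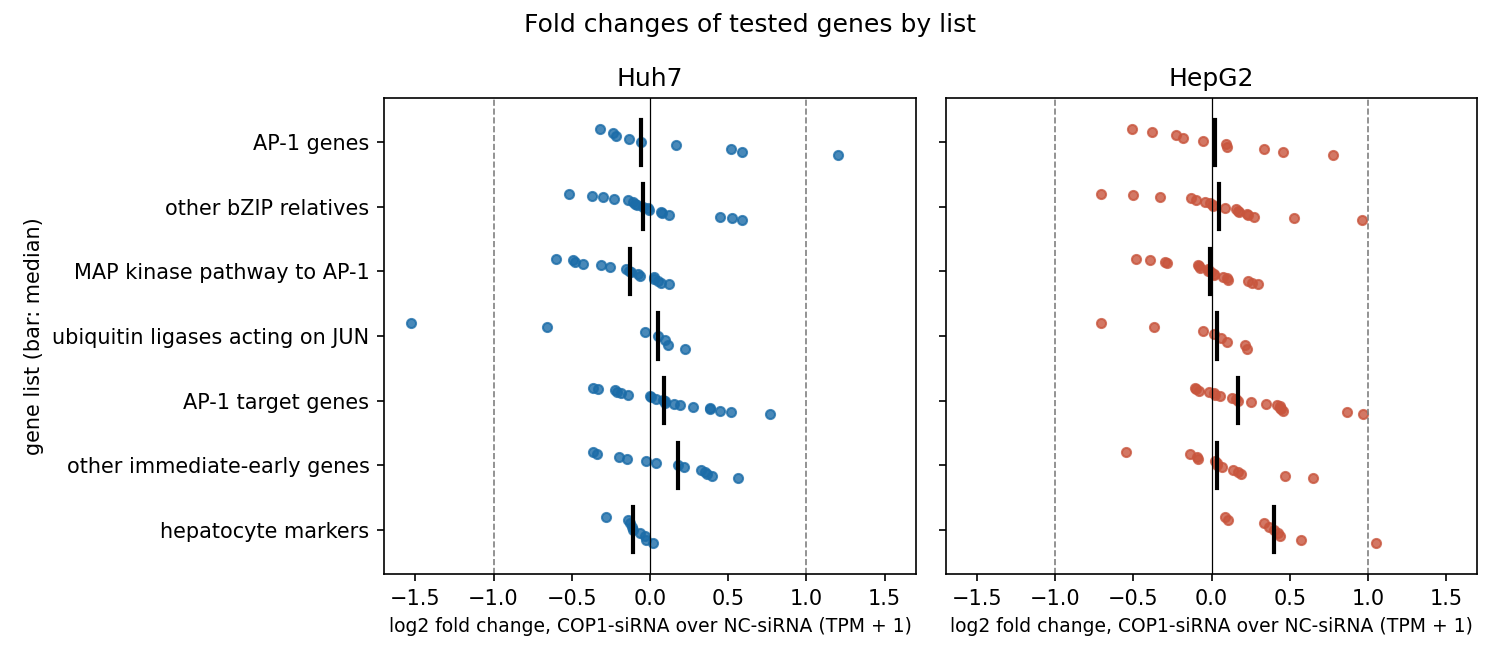
Log2 fold change of COP1-siRNA over NC-siRNA on TPM + 1 for each tested gene of the AP-1 family and of 6 related lists, in Huh7 (left) and HepG2 (right). Black bars are list medians and dashed lines mark 2-fold. Past 2-fold were FOSL1 and COP1 in Huh7 and FGB in HepG2.

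The genes whose levels over the 4 libraries were most like those of JUN, by the Euclidean distance of centred log2(TPM + 1) among 11970 genes tested in both lines, were RAB23 (distance 0.0435), ZC3H14 (0.0512) and HSPA1A (0.0613). RAB23, a small GTPase, was at 6.09 and 5.37 TPM in Huh7 and at 13.9 and 9.49 TPM in HepG2. HSPA1A has a near-identical copy, HSPA1B, so its value is uncertain. For FOSL1 the nearest were IGFBP6 (0.395), SOAT2 (0.462) and TMEM134 (0.491), all further away than the nearest genes of JUN. IGFBP6, an insulin-like growth factor binding protein, was at 3.19 and 6.48 TPM in Huh7 and at 1.79 and 2.63 TPM in HepG2.

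TPM and coverage did not stand in the same ratio for every member. The ratio of coverage to FPKM, relative to the commonest ratio in the library, was 1.00 for JUN, JUNB, JUND and FOS. It was from 0.994 to 1.00 for FOSB and from 0.894 to 0.920 for FOSL1. It was lower for FOSL2 (0.382 to 0.393), ATF2 (0.395 to 0.398), BATF3 (0.303 to 0.317) and ATF3 (0.179 to 0.199). On coverage scaled for depth, with 1 added, the log2 fold changes of FOSL1 were 1.25 in Huh7 and 0.79 in HepG2. Those of FOSL2 were 0.43 and 0.36, and those of BATF3 were 0.49 and −0.21. The added 1 shrinks changes more where coverage is low for its FPKM. The values of FOSL2 and BATF3, smaller than on TPM, thus do not by themselves show a smaller change in coverage.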

How the data were processed

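Polyadenylated RNA was sequenced from 4 strand-specific libraries, grouped by line and siRNA from their labels. The submitters' processing notes name FastQC 0.11.7, Trimmomatic 0.38, HISAT2 2.1.0, StringTie 2.1.3b and edgeR with GRCh38, and the annotation is not given in the sources used here. The authors deposited, per gene and library, a TPM that sums to 1000000, an FPKM proportional to it, and a coverage that is not scaled for depth. The precision of a single value is unknown because the deposited files give no read counts.

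The name column is empty, so genes were matched by NCBI Gene number to the RefSeq table of GRCh38.p14, which held 44698 of 46427 (96.3%). Between 49 and 51 repeated rows per table were summed. Fold changes within a line were log2 ratios of TPM + 1 for genes with at least 1 TPM in at least 1 library of the line. This scale understates changes of low genes. For fold changes on FPKM or scaled coverage 1 was added in the same way. Called genes were at least 2-fold, with no test. Across lines, limma 3.58.1 in R 4.3.3 (trended prior, log2(TPM + 1), line and siRNA as terms, two-sided, Benjamini-Hochberg over all genes) was run. The cell line was the pair. The study's methods set a p-value beside the 2-fold threshold, and none was computed here within a line because each condition had 1 library.

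Genes named by rule were the members, COP1, and the 3 genes most like JUN and FOSL1. The rule also took up to 4 genes per list past 1.5-fold in both lines or 2-fold in 1 line, which FGB met. The other genes named from the lists did not come from this rule and were chosen after their values were seen. The members and lists were chosen with earlier results of these data known. Lists were other bZIP relatives, MAP kinase pathway, ubiquitin ligases on JUN, AP-1 targets, immediate-early genes, hepatocyte markers and other cell type markers. Exon numbers came from GENCODE 29. Alternatives were the pseudocount, FPKM, scaling, the minimum TPM, scaled coverage, a 1.5-fold threshold, a constant prior and protein-coding genes only. The plain ratio was added after seeing the data. The fits were run on simulated data in which changes were equal in both lines and larger than those of the members. That run does not cover changes of the sizes seen here. Python 3.11.15, numpy 2.4.6, pandas 2.3.3 and matplotlib 3.10.9 were used. The values of 1 gene of the MAP kinase list are not reported here.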

Additional observations from a re-analysis of the deposited data

Results flagged for a closer look

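JUND and BATF3 had fold changes of opposite sign in the lines, as did the hepatocyte marker FGB. The log2 fold changes of JUND in HepG2 (0.09) and of FGB in Huh7 (−0.03) were small. The log2 fold change of JUND in HepG2 minus that in Huh7 was 0.41, that of BATF3 was −0.81, and that of FGB was 1.09. These differences between the lines were not tested, since each line and siRNA had 1 library.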

How the results depend on the processing

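Of 382 results recomputed under other settings, 371 were labelled the same, 10 stronger and 1 weaker, and no value past its threshold changed sign. A value of a gene was the same if it stayed on its side of the threshold. A count of members was the same if it changed by at most 1.5-fold. The 371 thus include counts of members called between the lines that moved from 9 to 8 or to 10. The 10 include counts that repeat the crossings of single genes. Another minimum TPM leaves a gene's fold change within a line as it was, so such values among the 371 could not move. The number of members called for the siRNA across both lines was 0, and it was 1 (FOSL1) with FPKM in place of TPM and 1 (FOSL1) with upper-quartile scaling. The causes were not tested. At 1.5-fold in place of 2-fold, the members past the threshold were 2 in Huh7 and 1 in HepG2. Over all settings the lowest and highest log2 fold change of FOSL1 were 1.09 and 1.34 in Huh7, and 0.60 and 0.97 in HepG2, and its adjusted limma p across both lines from 0.0228 to 0.749. The difference of ATF3 between the lines passed the threshold with FPKM (adjusted limma p 0.0349) and with upper-quartile scaling (0.0239) but was 0.02 with median-of-ratios scaling (0.868), and that of FOSL2 was lost with no minimum TPM (0.0670). Over all genes, 0 were called for the siRNA, but 135 (44 higher, 91 lower) with FPKM, 50 (27 higher, 23 lower) with upper-quartile scaling, 10 with a minimum of 5 TPM and 14 with protein-coding genes only. The counts past 2-fold in Huh7 were 83 higher and 58 lower, against 249 and 141 with a pseudocount of 0.1, 33 and 24 with FPKM, 115 and 33 with upper-quartile scaling, 34 and 42 with a minimum of 5 TPM and 257 and 154 as a plain ratio. In HepG2 they were 78 and 57, against 227 and 145, 21 and 18, 94 and 49, 29 and 26, and 254 and 153. No replicate could be left out within a line and siRNA, because each had 1 library. The cell line was the block of the limma fit, and no other paired analysis was possible because the labels carry no replicate numbers. Depth in reads is unknown, so differences of low genes such as FOSB could not be given an error.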
